A study of Mus musculus with 4 samples.

Results

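The genes described here are 9 receptor and junction genes listed as shared by blood vessel lining cells (endothelium) and blood stem cells: Tie1, Tek, Robo4, Neo1, Esam, Cdh5, Kdr, Pecam1 and Emcn. They were listed by name and matched to Entrez identifiers, 7 by the deposited symbols and Cdh5 and Kdr by RefSeq symbols, and all 9 were found among the 26286 genes of the count table. RNA was sequenced from sorted LSK cells (lineage-negative, Sca-1 and Kit positive) of bone marrow from C57BL/6 mice, with 2 libraries labelled wild-type and 2 labelled Hhex-deleted. Hhex is a homeobox transcription factor. The way its deletion was made, the age of the mice and whether each library is 1 mouse or a pool are not stated in the labels used here. The p-values therefore reflect only how these 4 libraries vary, which may be technical. The 2 libraries labelled Hhex-deleted differed in sex markers, as given below, and so came from different mice.

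Endothelial and blood stem cells arise from a shared embryonic source and keep a common set of surface receptors. Tek (Tie2) is the receptor kinase for angiopoietins, and Tie1 is its partner without a well-established ligand of its own. Kdr is the main signalling receptor for vascular endothelial growth factor (VEGF) A. Robo4 belongs to the Roundabout guidance receptors and Neo1 (neogenin) binds netrins and repulsive guidance molecules. Cdh5 (VE-cadherin), Esam and Pecam1 (CD31) sit at contacts between cells, and Emcn is a sialomucin of veins and stem cells. Esam, Emcn, Robo4 and Tek are also used as markers of stem cells within the LSK gate.

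Total counts per library ran from 27871827 to 29501591. The Hhex gene was counted more often in the Hhex-deleted-labelled libraries (179.0 and 187.6 CPM, reads of a gene scaled to a common library size) than in wild-type (127.3 and 115.2 CPM). Gene-level counts do not show which exons are present, so directions refer to libraries as labelled. Labelled Hhex-deleted replicate 1 stood apart in sex markers, with 2662.0 CPM of the X-linked RNA Xist against 1.89 to 2.66 CPM in the other 3 libraries, and 0.343 CPM of the Y-linked gene Ddx3y against 123.7 to 138.4 CPM. Results are therefore also given without it. That group then holds a single library, and the spread in such a fit comes from the wild-type libraries alone. The positive markers of the gate were present: Kit had 565.5 to 697.7 CPM and Ly6a (Sca-1) 20.7 to 42.5 CPM. Cd34, a progenitor marker that does not define the gate, had 781.5 to 856.5 CPM. Of the 8 mature lineage markers, Itgam had 53.0 to 97.2 CPM and Csf1r 19.0 to 73.3 CPM.

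The sequences just upstream of 3 of these genes are shown because Neo1 and Tie1 passed the test below and Robo4 came nearest to it among the 6 of 9 members with a RefSeq promoter entry. Each is the 250 bases before the transcription start, 5′ to 3′ on the gene's own strand, from RefSeq on GRCm38.p6. Capitals mark GGAAG or its reverse complement CTTCC, a core of the binding motif of ETS factors, the family that includes Erg and Fli1.
Tie1, chr4:118489850-118490099, minus strand: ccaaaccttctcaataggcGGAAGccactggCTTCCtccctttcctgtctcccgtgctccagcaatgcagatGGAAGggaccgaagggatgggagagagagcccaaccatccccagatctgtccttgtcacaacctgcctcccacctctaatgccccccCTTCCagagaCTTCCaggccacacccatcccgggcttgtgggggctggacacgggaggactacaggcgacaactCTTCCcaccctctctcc
Robo4, chr9:37401722-37401971, plus strand: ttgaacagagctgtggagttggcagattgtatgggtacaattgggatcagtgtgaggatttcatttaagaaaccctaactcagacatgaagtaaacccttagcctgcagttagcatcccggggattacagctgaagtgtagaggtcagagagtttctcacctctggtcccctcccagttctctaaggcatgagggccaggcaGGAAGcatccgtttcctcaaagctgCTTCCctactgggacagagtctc
Neo1, chr9:59036442-59036691, minus strand: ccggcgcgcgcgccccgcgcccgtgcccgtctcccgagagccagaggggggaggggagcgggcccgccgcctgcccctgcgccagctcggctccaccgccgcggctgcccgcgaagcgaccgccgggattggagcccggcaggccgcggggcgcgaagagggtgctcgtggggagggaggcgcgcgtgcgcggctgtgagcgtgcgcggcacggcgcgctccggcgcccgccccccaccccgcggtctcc

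The Tie1 sequence held 6 matches to the ETS core, a number reached by 0.341% of 32817 mouse promoters of the same length. Robo4 held 2, at 48 and 23 bases before the start, and 29.4% of promoters held at least that many. Neo1 held none, while 64.1% of all promoters held at least 1. Among the other members Emcn held 2, Kdr 1 and Tek none. The Neo1 sequence was of another make-up, with 45 CG pairs, more than in 99.6% of promoters, against 6 in Tie1 and 2 in Robo4. The letters ATTAA (or TTAAT), a core of the site preferred by the Hhex homeodomain, occurred in none of the 6 sequences and in 24.9% of all promoters. GATAA (or TTATC), the core of GATA factor sites, occurred in none of the 6 and in 22.6% of all promoters. These matches describe letters in a window, not binding.

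The first question was how much of each gene wild-type LSK cells carry. Levels of different genes are compared per length, as RPKM (CPM divided by the gene's length in kilobases). Pecam1 was the most abundant member with 36.9 ± 2.84 RPKM (SD, n = 2), followed by Tie1 with 26.7 ± 2.11 RPKM and Esam with 11.2 ± 1.6 RPKM. Pecam1 lay at the 80.0th percentile of wild-type levels among all 14912 tested genes. Emcn (6.03 ± 0.798 RPKM) and Robo4 (5.72 ± 0.114 RPKM) could not be ordered, since their libraries overlapped. Tek followed with 3.39 ± 0.332 RPKM. The last 3 were far lower: Kdr had 0.361 ± 0.0383 RPKM, Neo1 0.248 ± 0.0714 RPKM and Cdh5 0.0269 ± 0.000785 RPKM. All other neighbours in this order were separated in both wild-type libraries. In the Hhex-deleted-labelled libraries, Pecam1, Tie1, Esam and Emcn kept the first 4 places. Tek (3.61 ± 0.907 RPKM) and Robo4 (3.09 ± 0.66 RPKM) overlapped there, and Neo1 (1.47 ± 0.244 RPKM) came before Kdr (0.585 ± 0.354 RPKM).

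**Figure D1:**
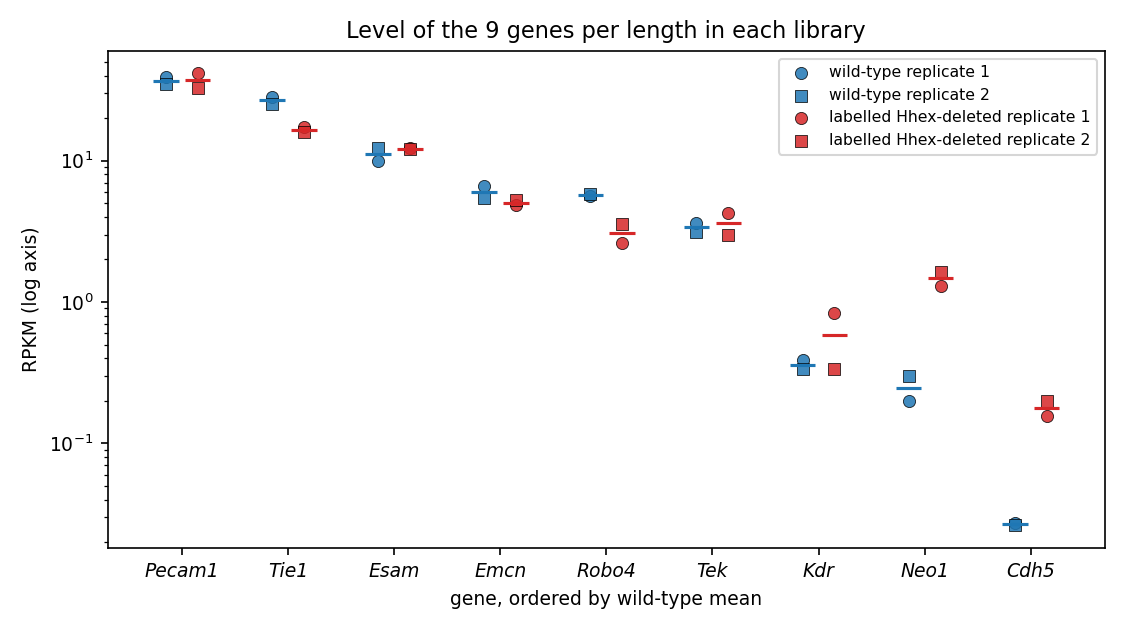
RPKM (log axis) of each gene in each library, with circles for replicate 1, squares for replicate 2 and bars for group means. Tie1 and Robo4 lie lower and Neo1 and Cdh5 higher in both libraries labelled Hhex-deleted, while Pecam1, Esam, Tek and Kdr overlap between groups.

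The second question was which of these genes differed between libraries labelled Hhex-deleted and wild-type. Neo1 was higher and Tie1 lower, and none of the other 7 passed (edgeR quasi-likelihood test, Benjamini-Hochberg adjusted p under 0.05 over all tested genes). So 1 of 9 members was higher and 1 of 9 lower, where 1.48% of all tested genes were higher and 1.12% lower. The median log2 fold change of the 9 was 0.093, and that of all tested genes -0.0055. Groups did not overlap for 5 of the 9 (Tie1, Robo4, Neo1, Cdh5 and Emcn), and for 45.5% of all tested genes. Cdh5 passed the low-count filter only through the group where it is high, so its lack of overlap is no added evidence. Without Hhex-deleted-labelled replicate 1 the same members, Neo1 and Tie1, passed the test, where 2.4% of all tested genes were higher and 1.51% lower, and the median of the 9 was -0.18. In bulk RNA, fewer cells of a type and less RNA per cell cannot be told apart.

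Among the receptor kinases, Tie1 had 109.3 and 97.7 CPM in wild-type and 67.1 and 62.0 CPM in the Hhex-deleted-labelled libraries. Both of the latter lay below both wild-type libraries. The log2 fold change came to -0.68 with an SE of 0.091 (adjusted p = 0.0227 by edgeR), which is 0.624 of the wild-type level. The log2 fold change was -0.74 without Hhex-deleted-labelled replicate 1 and -0.62 without Hhex-deleted-labelled replicate 2. The call did not hold once either wild-type library was removed, at -0.6 (adjusted p = 0.0884) for replicate 1 and -0.75 (adjusted p = 0.0566) for replicate 2.

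Tek, the kinase that pairs with Tie1, had 16.9 and 14.7 CPM in wild-type and 19.8 and 13.8 CPM in the Hhex-deleted-labelled libraries. Its highest and lowest values were both in the latter group, so the groups overlapped. The log2 fold change was 0.093, with a 95% interval from -0.39 to 0.58 (edgeR adjusted p = 0.897). The ratio of Tie1 to Tek within a library, per length, was 7.78 and 7.99 in wild-type and 4.07 and 5.38 in the Hhex-deleted-labelled libraries. The ratio was thus lower in both of the latter, and was not tested.

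Kdr had 58 and 52 reads in wild-type, 133 in Hhex-deleted-labelled replicate 1 and 55 in replicate 2. Only Hhex-deleted-labelled replicate 1, which stood apart in sex markers, was high. The log2 fold change was 0.69 (95% interval -0.43 to 1.82, edgeR adjusted p = 0.576). It was -0.11 without Hhex-deleted-labelled replicate 1 and 1.22 without Hhex-deleted-labelled replicate 2 (adjusted p = 0.104). Tek and Pecam1 were also highest in Hhex-deleted-labelled replicate 1.

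Of the 2 guidance receptors, Neo1 passed the test and Robo4 did not. Neo1 had 40 and 63 reads in wild-type and 280 and 366 in the Hhex-deleted-labelled libraries, which is 1.46 and 2.21 CPM against 9.59 and 12.1 CPM. Every library labelled Hhex-deleted lay above both wild-type libraries. The log2 fold change came to 2.56 with an SE of 0.27 (adjusted p = 0.0139 by edgeR), a 5.91-fold higher level. Neo1 had log2 fold changes from 2.3 to 2.9 with any 1 library left out. Its level stayed low, at 1.47 ± 0.244 RPKM (SD, n = 2), the 19.1th percentile of tested genes in that group.

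Robo4 had 20.8 and 21.4 CPM in wild-type against 9.66 and 13.1 CPM. The groups did not overlap, and the Hhex-deleted-labelled libraries differed more from each other than the wild-type libraries did. The log2 fold change was -0.89 ± 0.18 (SE, 95% interval -1.32 to -0.46), with an edgeR adjusted p of 0.063, just outside the threshold. It was past the threshold with DESeq2 (adjusted p = 0.00179) and with no low-count filter (0.0373). The log2 fold change was -0.69 without Hhex-deleted-labelled replicate 1 and -1.12 without Hhex-deleted-labelled replicate 2. The adjusted p reached 0.17 with wild-type replicate 1 left out and 0.271 with wild-type replicate 2 left out. Per length, Robo4 exceeded Neo1 by 28.5 and 19.4 times in the wild-type libraries and by 2.02 and 2.16 times in those labelled Hhex-deleted.

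Among the junction and adhesion genes, Cdh5 was near the limit of detection. It had 3 and 3 reads in wild-type and 18 and 24 in the Hhex-deleted-labelled libraries, and 3 reads are the floor taken for a single library (0.0995 to 0.109 CPM). Both libraries labelled Hhex-deleted were above both wild-type libraries. The ratio of pooled CPM was 6.6, with an exact 95% interval from 2.79 to 19.0 that covers counting error only. The fitted log2 fold change of 2.67 ± 0.51 (SE) did not pass the test (edgeR adjusted p = 0.0585). Cdh5 alone among the 9 passed the low-count filter only through the Hhex-deleted-labelled libraries.

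Pecam1 had 128.7 and 115.4 CPM in wild-type and 137.2 and 107.5 CPM in the Hhex-deleted-labelled libraries. The latter enclosed the wild-type values. The log2 fold change was 0.0041 (95% interval -0.32 to 0.33, edgeR adjusted p = 0.996). Esam had 18.6 and 22.8 CPM against 22.7 and 22.3 CPM, with overlapping groups and a log2 fold change of 0.12 (95% interval -0.21 to 0.45, edgeR adjusted p = 0.773). Emcn had 9.63 and 7.98 CPM against 7.06 and 7.66 CPM. Its libraries labelled Hhex-deleted were both lower by a small margin, and the log2 fold change was -0.26 (95% interval -0.71 to 0.19, edgeR adjusted p = 0.612). These intervals leave room for changes of up to about the size seen in Tie1 for Emcn, and smaller ones for Pecam1 and Esam.

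**Figure D2:**
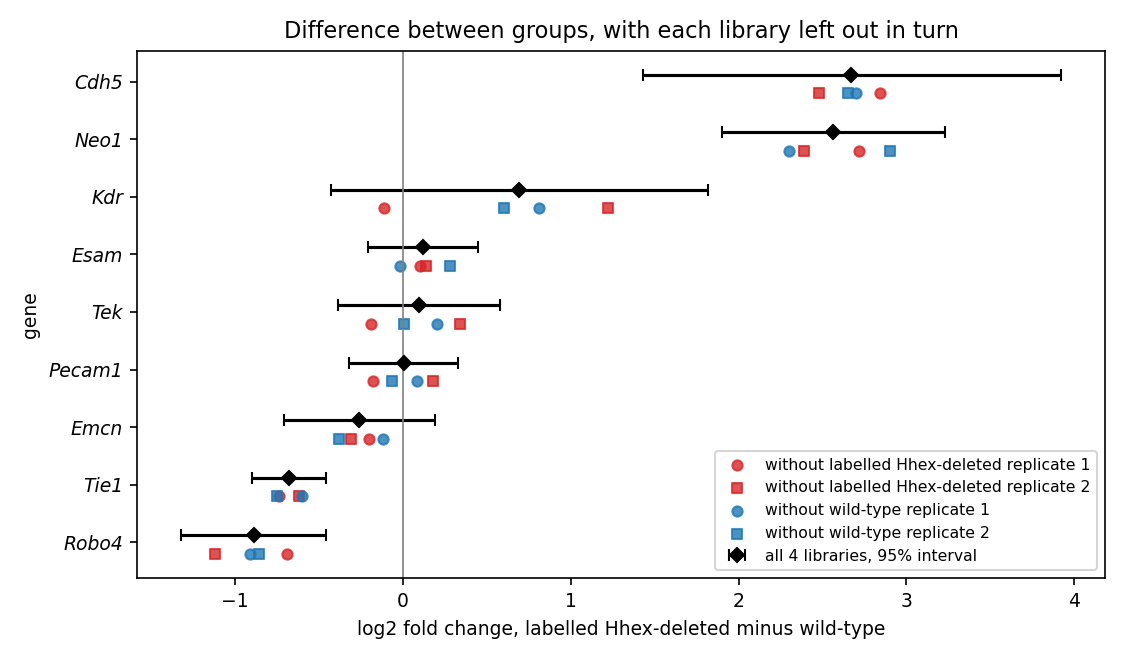
Log2 fold change of each gene, labelled Hhex-deleted minus wild-type, from all 4 libraries (diamonds with 95% intervals) and with each library left out (coloured points). Neo1 stays between 2.3 and 2.9 and Tie1 between -0.75 and -0.6, whereas Kdr moves from -0.11 to 1.22.

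The partners of the 9 genes were read from 5 lists: ligands and receptors of the angiopoietin and VEGF system, guidance ligands and receptors, junction partners, intracellular effectors, and transcription factors of endothelium and stem cells. Together 55 of their 72 matched genes were tested. Where 1.48% of all tested genes were higher and 1.12% lower, 4 of these 55 were higher and 1 lower. With Hhex-deleted-labelled replicate 1 left out, 3 were higher and 2 lower: the angiopoietin and VEGF list then held 1 lower gene, the guidance list lost its 1 higher gene, and the counts of the other 3 lists were the same.

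In the angiopoietin and VEGF list, 0 of 9 tested genes passed edgeR's test. At an unadjusted p under 0.05, 2 were higher and 4 lower, DESeq2 called 0 higher and 3 lower, and limma-voom called 0. The median log2 fold change was -0.69 over these 9 genes, but -0.11 over all 13 genes of the list with no low-count filter and -0.1 over the same 13 with DESeq2. The VEGF receptor gene Flt1 stood at 4.52 and 6.48 CPM in wild-type and at 1.95 and 2.52 CPM in the Hhex-deleted-labelled libraries (log2 fold change -1.3 ± 0.28 SE, edgeR adjusted p = 0.0796). The co-receptor genes Nrp1 and Nrp2 had log2 fold changes of -0.69 and -1.22 (edgeR adjusted p = 0.0932 and 0.0961). Flt4, the VEGF receptor gene of lymphatic vessels, and the ligand genes of Tek and Kdr are added here after their values were seen. Flt4 went the other way, with 0.912 and 0.84 CPM in wild-type against 1.58 and 2.02 CPM (log2 fold change 1.04, edgeR adjusted p = 0.178), and did not pass the test. Angpt1 had 390.7 and 322.7 CPM in wild-type against 411.5 and 515.5 CPM, and Vegfa 49.8 and 54.9 CPM against 37.9 and 26.6 CPM (edgeR adjusted p = 0.287 and 0.13). Angpt2 went the other way from Angpt1, with 0.985 and 0.77 CPM in wild-type against 0.582 and 0.365 CPM (edgeR adjusted p = 0.4). Vegfc went the other way from Vegfa, with a log2 fold change of 0.55 (edgeR adjusted p = 0.387).

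In the guidance list 1 of 8 tested genes was higher. The median log2 fold change was 0.75 over these 8 and 0.91 over 15 genes with no low-count filter. Robo1, a Slit receptor of the same family as Robo4, had 0.255 and 0.35 CPM in wild-type and 1.82 and 1.46 CPM in the Hhex-deleted-labelled libraries. Both of the latter were higher, and the log2 fold change came to 2.42 with an SE of 0.39 (adjusted p = 0.0366 by edgeR). Robo1 had 7 and 10 reads in wild-type against 53 and 44, so it passed the low-count filter only through the group where it is high. Its call did not hold whichever library was left out (adjusted p from 0.0585 to 0.164). The ligand gene Slit1 also entered the test only through that group, with 3 and 6 reads against 18 and 22, a ratio of pooled CPM of 4.19 (exact 95% counting interval 2.0 to 9.83). Neither Slit1 nor the netrin receptor gene Unc5a (log2 fold change 0.6) passed the test (edgeR adjusted p = 0.114 and 0.138). The netrin receptor gene Dcc, a relative of Neo1, had no read in any library.

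Of 14 tested junction partners 2 were higher, with a list median of -0.0018. Magi1, which encodes a scaffold protein that binds Esam at junctions, had 0.766 and 0.84 CPM in wild-type against 11.6 and 11.5 CPM. Its log2 fold change came to 3.84 with an SE of 0.21 (adjusted p = 0.00318 by edgeR), and ran from 3.78 to 3.92 with any 1 library left out. Ctnna1, the α-catenin that ties cadherins to actin, rose from 93.5 and 86.6 CPM to 144.4 and 133.7 CPM. Its log2 fold change came to 0.63 with an SE of 0.084 (adjusted p = 0.0229 by edgeR), and the call did not hold without wild-type replicate 1 (adjusted p = 0.0681) or wild-type replicate 2 (0.128). Afdn, the junction scaffold afadin, stood at -0.75 without passing the test (edgeR adjusted p = 0.057). For Esam itself, the binding partner of Magi1, the log2 fold change was 0.12.

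Of 12 intracellular effectors 1 was lower, with a list median of 0.07. Dok2, an adaptor that docks on active Tek, fell from 39.5 and 31.9 CPM to 19.0 and 17.5 CPM. Its log2 fold change came to -0.97 with an SE of 0.13 (adjusted p = 0.0253 by edgeR), and the call did not hold without Hhex-deleted-labelled replicate 2 (adjusted p = 0.0651) or wild-type replicate 1 (0.0808). The adaptor gene Grb7 had 1 and 5 reads in wild-type, around the 3-read floor, against 53 and 29. It entered the test only through the group where it is high, and its ratio of pooled CPM was 12.9 (exact 95% counting interval 5.68 to 36.2). Neither Grb7 nor the kinase gene Fyn (log2 fold change 0.49) passed the test (edgeR adjusted p = 0.056 and 0.0641).

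Of 12 tested transcription factor genes 1 was higher, with a list median of -0.023. Tal1, required for blood formation from the embryonic vessel wall, rose from 159.0 and 159.4 CPM to 217.5 and 232.6 CPM. Its log2 fold change came to 0.5 with an SE of 0.077 (adjusted p = 0.0339 by edgeR), and the call did not hold without Hhex-deleted-labelled replicate 2 (adjusted p = 0.0619) or with either wild-type library removed (0.135 and 0.184). Gata2 (0.76) and Ets2 (-0.43) did not pass the test (edgeR adjusted p = 0.0727 and 0.108). Etv2, Sox7 and Sox17, factors of endothelial cells, had no read in any library.

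**Figure D3:**
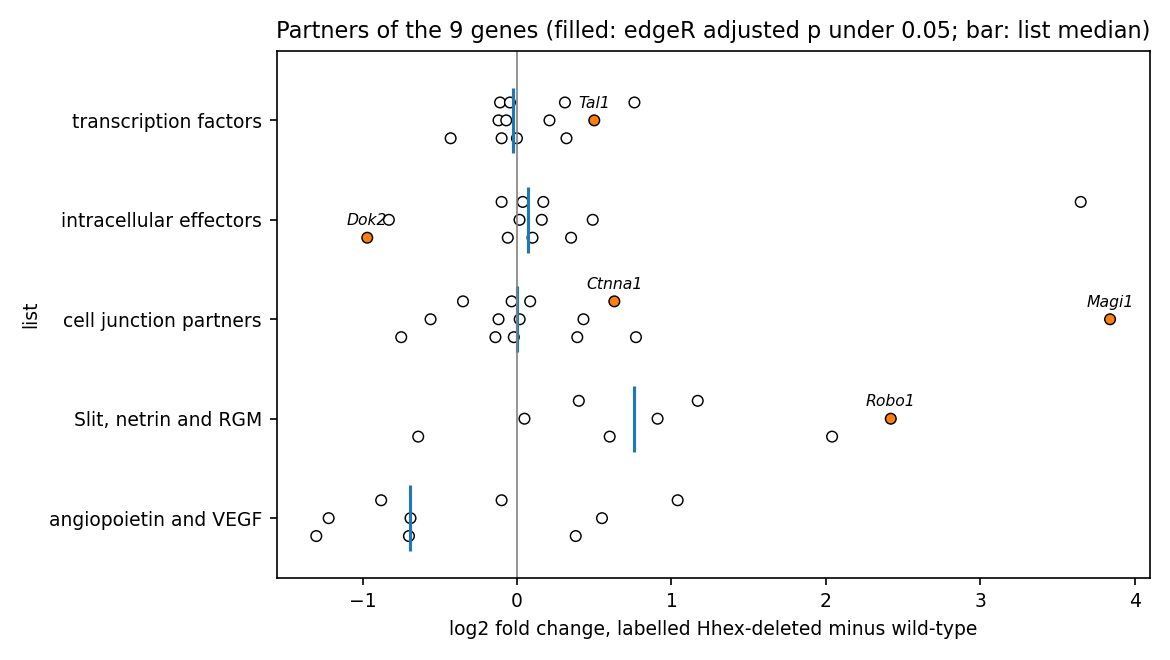
Log2 fold change of every tested gene in the 5 partner lists, labelled Hhex-deleted minus wild-type, with medians over the tested genes as blue bars and genes past the test filled in orange. The filled genes are Magi1, Robo1, Ctnna1 and Tal1 to the right of 0 and Dok2 to the left.

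Markers of other cells were set beside these results. The share of all tested genes past the test, 1.48% higher and 1.12% lower, is the background for each list. Of 18 endothelial markers 3 held nearly all the signal: Adgrl4 with 482.7 to 662.1 CPM, Egfl7 with 72.0 to 142.4 CPM and Vwf with 51.4 to 90.3 CPM. The other 15 summed to 12.1 and 15.4 CPM in wild-type and 13.6 and 13.1 CPM in the Hhex-deleted-labelled libraries. Flt1 gave up to 6.48 CPM of this. Sox17 and Gpihbp1 had no read in any library, and Mmrn2, Lyve1 and Aplnr were at 0.146 CPM or less in each. Egfl7, a secreted protein gene active in both lineages, was the 1 of 12 tested markers that passed (log2 fold change 0.78, edgeR adjusted p = 0.0366), with 0 lower. Its call did not hold without either wild-type library (adjusted p = 0.0991 and 0.186). With DESeq2, 1 of 16 tested endothelial markers was higher and 1 lower. The edgeR median log2 fold change of the tested markers was 0.23, and 0.22 without Hhex-deleted-labelled replicate 1. The whole list summed to 650.4 and 628.2 CPM in wild-type and to 714.7 and 869.0 CPM in the Hhex-deleted-labelled libraries. Its part in the results of the 9 genes was not tested.

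**Figure D4:**
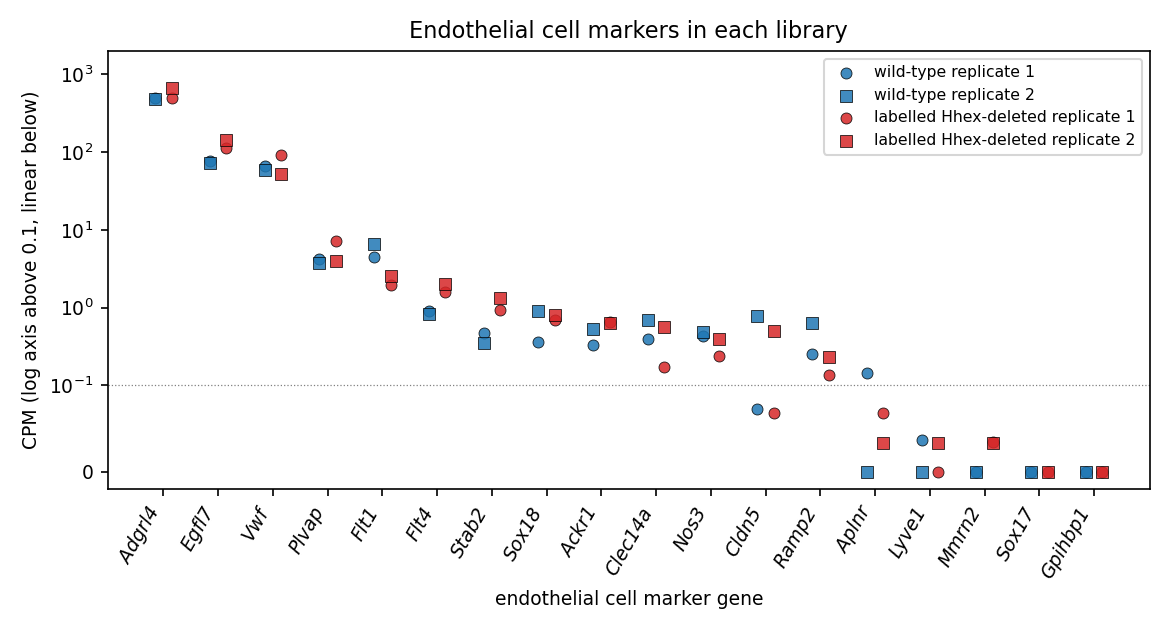
CPM of the 18 endothelial cell markers in each library (log axis above 0.1, linear below). Adgrl4, Egfl7 and Vwf stand above 50 CPM in every library, and the markers on the right lie at or near 0 in both groups.

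The megakaryocyte and platelet markers, which accompany Pecam1 and Esam on platelets, summed to 591.6 and 531.4 CPM in wild-type and to 787.0 and 607.4 CPM in the Hhex-deleted-labelled libraries, highest in the same library as Pecam1, Tek and Kdr. Pf4 had 97.2 and 77.0 CPM against 139.5 and 92.8 CPM, and Itga2b 278.9 and 244.5 CPM against 412.9 and 318.0 CPM. None of 11 tested passed edgeR's test (2 higher at an unadjusted p under 0.05, 1 called by DESeq2 and 0 by limma-voom). Of 4 tested stromal markers 0 passed by edgeR, DESeq2 or limma-voom, 0 had an unadjusted p under 0.05, and only Pdgfrb (68.5 to 92.6 CPM) was above 10 CPM; Col1a2 and Cxcl12 had at most 5.04 and 2.92 CPM. The 8 mature lineage markers summed to 162.7 and 189.9 CPM in wild-type and to 135.5 and 118.0 CPM in the Hhex-deleted-labelled libraries. Of 9 gate and stem cell markers 1 was higher, Cd48 (0.63, edgeR adjusted p = 0.0239). The median log2 fold change of the 9 was 0.31. It was 0.69 without Hhex-deleted-labelled replicate 1 and -0.03 without Hhex-deleted-labelled replicate 2, so it depended on which of these libraries was kept. The Cd48 call did not hold without wild-type replicate 1 (adjusted p = 0.0652) or wild-type replicate 2 (0.137).

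The 3 genes whose centred log2 CPM lay nearest to that of Neo1 over the 4 libraries, among 13435 genes with a mean of at least 1 CPM, were Blnk, Col27a1 and Vpreb1 (Euclidean distances of 0.169, 0.303 and 0.325). Blnk, an adaptor of B cell receptor signalling, had 2.63 and 3.5 CPM in wild-type against 15.1 and 18.7 CPM. Vpreb1, part of the surrogate light chain in early B cells, had 2.23 and 2.63 CPM against 15.2 and 18.2 CPM, and the collagen gene Col27a1 0.328 and 0.42 CPM against 2.02 and 2.12 CPM. A list of 12 B cell precursor markers, written after earlier results of these data were known, is given beside Neo1. It includes Blnk and Vpreb1, named above for their nearness to Neo1. Of the 12, 11 were higher and none lower, where 1.48% of all tested genes were higher and 1.12% lower. The count of higher markers was 11 with DESeq2, 10 with limma-voom and 8 with limma on the deposited log2 RPKM values. The median log2 fold change of the 12 was 2.88. Their summed level was 183.7 and 209.0 CPM in wild-type and 655.1 and 931.8 CPM in the Hhex-deleted-labelled libraries, and none was at 0 in any library. Their part in the Neo1 result was not tested.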

How the data were processed

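RNA-seq libraries were made from sorted LSK cells with an Illumina TruSeq RNA kit, per the labels' protocols. The authors deposited raw read counts per Entrez gene with gene lengths, and a table of log2 RPKM values for each library. Subread, featureCounts, limma and the build mm9 are named in the submitters' processing notes, without versions or roles. Strand setting is not given in the sources used here. After length was added back, sorted log2 RPKM values of the libraries differed by a median of 0.000809, so these deposited values share one distribution, and the counts were used for the main results. The 2 members Cdh5 and Kdr are not in the 12662 genes of the log2 RPKM tables.

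The main test was run with edgeR 4.0.16 under R 4.3.3: filterByExpr by group (minimum count 10, minimum total 15), TMM scaling, and a robust quasi-likelihood fit with group as its one term to all 4 libraries. This left 14912 genes, with a biological coefficient of variation of 16.3%. P-values were Benjamini-Hochberg adjusted with a threshold of 0.05. Fold changes used a prior count of 0.125, and the SE is the size of the log2 fold change divided by the square root of F. RPKM was computed from scaled counts and deposited lengths. DESeq2 1.42.0, limma-voom (limma 3.58.1), DESeq2 size factors, no low-count filter, limma on the deposited log2 RPKM values, a replicate block and leaving out each library were alternatives. Leaving out a library leaves a single library in its group, so the spread then comes from the other group alone. P-values and counts of such fits show how calls move and are not added evidence. Tests were checked on simulated counts. No pair of libraries agreed within sampling noise (chi-square per degree of freedom of 30.22 or more).

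Members, lists and tests were chosen with earlier results of these data known. Named genes are all members, genes past the test in the 5 partner lists plus up to 3 per list by unadjusted p, the 3 most abundant markers of each marker list and any past the test, and the 3 profiles nearest to the member with the smallest p. Some of these genes are not reported here. Of 151 list entries 150 were matched. The mouse gene and promoter tables are on GRCm38, not the authors' build, and served for names, gene order and upstream sequence. In that annotation Cdh5, Kdr and Emcn each overlap 1 predicted gene, whose reads cannot be told apart from theirs without strand.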

Additional observations from a re-analysis of the deposited data

How the results depend on the processing

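The call of Neo1 as higher held in every alternative run that kept all libraries. The count of members lower was 2 with DESeq2 and with no low-count filter, where Robo4 joined Tie1, and ran from 0 to 2 with a library left out. The log2 fold changes that turned sign belonged to members that never passed the test: with a library left out Tek ran from -0.19 to 0.34, Kdr from -0.11 to 1.22, Pecam1 from -0.18 to 0.18 and Esam from -0.019 to 0.28. The negative ends came without Hhex-deleted-labelled replicate 1 for Tek, Kdr and Pecam1 and without wild-type replicate 1 for Esam. Pecam1 was also below 0 with limma-voom (-0.0046), without wild-type replicate 2 (-0.065) and with the replicate block (-0.0042). Same-numbered libraries had deviations from their group means that correlated with r = 0.326 across 14912 genes, but the labels give no shared source and there are 2 pairs, so the numbers were not used to pair them. With the replicate block 1 member was higher and 1 lower, as without it (Neo1 adjusted p = 0.0223, Tie1 0.0321), and the marker genes past the test went from 3 to 1. Robo1 (0.0642), Egfl7 (0.0688) and Cd48 (0.0502) lost their calls under it.

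Over the whole table, 221 genes were higher and 167 lower. The counts were 488 and 504 with DESeq2, and 114 and 65 with limma on log2 RPKM, 272 were lower with no low-count filter, and leaving out 1 library gave from 84 to 366 higher and from 40 to 231 lower, with the low ends without wild-type replicate 2 and the high ends without Hhex-deleted-labelled replicate 1. Without wild-type replicate 1, 119 were higher. In the partner lists, 9 were higher and 5 lower with DESeq2, 2 higher with limma on log2 RPKM and 2 lower with no filter, with ranges of 1 to 3 higher and 0 to 2 lower with a library left out. In the marker lists, 2 were lower with DESeq2, against 0, and with a library left out 1 (without either wild-type library) to 8 (without Hhex-deleted-labelled replicate 1) were higher and 0 to 1 lower. The wild-type level of Robo4 was 6.02 RPKM from the deposited values against 5.72, which is outside its replicate spread. This shift was not particular to Robo4. All other members in the log2 RPKM tables were also higher there, within their spread, as Tie1 (27.9 against 26.7) and Pecam1 (38.8 against 36.9). The causes were not tested. Depth limits Cdh5 most, with 6 reads over both wild-type libraries.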

Other observations

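The genes beside each member on its chromosome, chosen after the values were seen, give a view of the surroundings of the members in RefSeq order. The nearest tested gene on either side of each of the 9 made 18 genes, of which 0 passed edgeR's test, and none was under 0.05 before adjustment. DESeq2 and limma-voom also called 0, with 0 and 1 genes under 0.05 before adjustment. Their log2 fold changes ran from -0.36 to 0.64. Kit, the stem cell factor receptor gene that neighbours Kdr, stood at 0.16, and Robo3, next to Robo4, at 0.4 with overlapping groups. The 2 neighbours of Neo1, 2410076I21Rik and Gm7589, stood at 0.64 and -0.24.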
